A study of Mus musculus with 8 samples.

Results

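C12 is the number of a cluster of basal mammary epithelial cells, described here in the 2 nulliparous mice of the series. A cell was a member if the deposited cell table placed it in C12, flagged it as passing all quality filters, and listed it under a nulliparous library. There were 786 such cells, 504 in mouse NP 1 and 282 in mouse NP 2, of 4223 passing nulliparous cells and 25009 passing cells in the whole series. They made up 23.3% of the cells of NP 1 and 13.7% of those of NP 2. C12 held 880 cells over all stages, so most of it was nulliparous. The cells were described against C4 (2183 nulliparous cells) and C6 (688 nulliparous cells), luminal clusters of the same libraries whose leading genes are given below.

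All mice were C57BL/6N females, with 2 mice per stage and 1 mouse per library. Nulliparous mice (NP) were 8 weeks old. The other mice were taken at gestation day 14.5 (G), on lactation day 6 (L), or 11 days after their pups were weaned, termed post-involution (PI). Cells were sorted for the epithelial surface protein EpCAM after exclusion of blood and endothelial cells, and captured in droplets for sequencing of the 3′ ends of transcripts. Basal cells that fell outside the EpCAM gate were not captured.

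The mammary epithelium is a bilayer. Luminal cells line the duct and carry the keratins *Krt8* and *Krt18*, while basal cells lie on the basement membrane and carry *Krt5* and *Krt14*. Most basal cells are myoepithelial. They hold smooth muscle actin and myosin, and contract in response to oxytocin so that milk is pushed along the ducts. The basal layer is also where several markers of mammary stem cells have been described.

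Values are counts of unique molecular identifiers (UMIs, each standing for 1 captured transcript), summed over the cells of a cluster within a mouse and given per 1000000 UMIs (CPM). The median C12 cell had 6046 UMIs in NP 1 and 6302.5 in NP 2, against 10163 and 10309 in C4 and 7767.5 and 6597 in C6. The summed depth of C12 was 4254570 UMIs in NP 1 and 2185803 in NP 2. Mitochondrial transcripts made up 0.879% and 1.04% of UMIs in the median C12 cell. Of 25806 barcodes counted per library, 791 also occurred in another library, and none of these was among the cells used. Because the clusters were made from these same counts, differences between C12 and C4 or C6 describe the clusters and were not tested.

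The 4 genes that mark the cluster were all high in C12. *Krt14* stood at 2907 CPM in NP 1 and 2698 CPM in NP 2, against 46.0 and 16.5 CPM in C4 and 50.4 and 29.9 CPM in C6. *Krt5*, the partner of *Krt14* in the keratin filaments of basal epithelia, stood at 776 and 685 CPM, against at most 11.6 CPM in either luminal cluster. *Acta2*, which encodes smooth muscle actin, stood at 5568 and 5357 CPM, against at most 61.2 CPM. *Krt15*, a keratin of basal cells in stratified epithelia, stood at 600 and 476 CPM, against at most 30.7 CPM. At least 1 *Acta2* UMI was found in every C12 cell of both mice, whereas *Krt15* was found in 64.9% and 56.4%. All 4 markers were thus present as the label has it in both mice. In C18, a cluster of the same libraries with 24 and 56 cells and median depths of 5336 and 4980 UMIs, *Acta2* was found in 25% and 12.5% of cells and *Krt15* in 8.33% and 3.57%. C18 carried all 7 genes of a fibroblast list, at 17170 and 23334 CPM in sum, and serves below as the cell type in which epithelial transcripts would not belong.

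**Figure D1:**
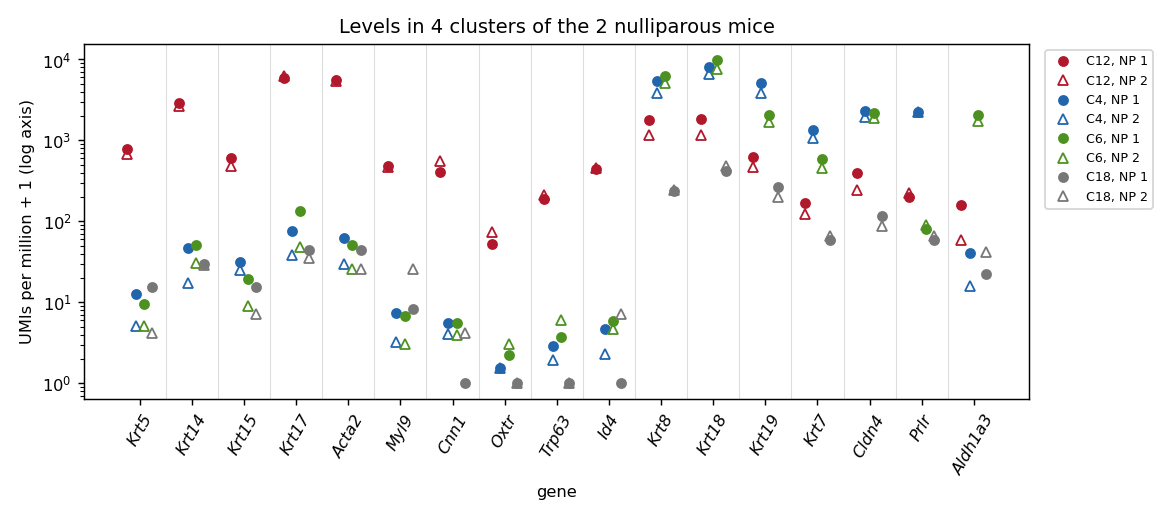
Levels of 17 genes in C12, C4, C6 and C18, as CPM plus 1 on a log axis, with 1 point per mouse (circles NP 1, triangles NP 2). The basal keratins and contractile genes of C12, such as *Acta2* at 5568 and 5357 CPM, lie far above the other clusters, while *Krt8* and *Krt18* of C12 lie between C18 and the luminal clusters.

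A gene was counted as apart when its ratio was at least 2-fold in the same direction in both mice, after 1 CPM was added, with at least 20 CPM in 1 of the clusters in both mice. By this rule 1224 of 6220 genes (19.7%) were higher in C12 than in C4 and 809 (13%) were lower. Against C6, 637 of 5949 genes (10.7%) were higher and 491 (8.25%) were lower. Higher than in both were 475 of 5643 genes (8.42%), and lower than in both were 147 (2.60%). These shares are the background for the gene groups that follow.

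Contractile genes were mostly higher in C12. Of 17 genes listed, 16 reached the level for counting, 14 were higher in C12 than in both luminal clusters and none was lower. The myosin regulatory light chain *Myl9* stood at 486 and 474 CPM, against at most 6.47 CPM in C4 and C6. *Mylk*, the kinase that activates it, stood at 425 and 467 CPM, against at most 4.22 CPM. The smooth muscle myosin heavy chain *Myh11* stood at 406 and 459 CPM, against at most 3.92 CPM. None of these groups of values overlapped between clusters. *Cnn1* (calponin) stood at 404 and 562 CPM, *Actg2* (a second smooth muscle actin) at 361 and 371 CPM, and *Lmod1* (leiomodin, a nucleator of actin) at 388 and 359 CPM. The actin-binding genes *Tagln* and *Tpm2* were also high, at 2567 and 3123 CPM and at 2826 and 2826 CPM. *Oxtr*, the oxytocin receptor, stood at 52.2 and 72.7 CPM against at most 2.07 CPM in C4 and C6, and had a UMI in 24.8% and 29.8% of C12 cells. None of the 24 and 56 C18 cells had one, which allows shares of cells with a UMI of up to 12.5% and 5.36%. *Tpm1* and *Actn1*, genes with wide use outside muscle, were higher than in C4 but not than in C6. *Des*, the intermediate filament of muscle, was near 0 in C12, at 0.705 and 2.74 CPM.

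The genes that regulate this programme were not set apart in the same way. Serum response factor binds the CArG box in smooth muscle promoters, together with the myocardin family of coactivators. *Srf* itself stood at 58.1 and 54.9 CPM in C12, 42.1 and 29.3 CPM in C4 and 62.5 and 50.2 CPM in C6. Of the 4 genes listed, 2 reached the level for counting and none was apart from both clusters. *Myocd* was at 0.235 and 1.83 CPM. The core promoters of *Acta2* and *Myl9* are shown because these genes were among the most apart from the luminal clusters and carry the box near their start. Each window runs from 250 bases before to 50 bases after the annotated start, in RefSeq on GRCm38.p6, and capitals mark each CArG box with up to 1 G or C in its middle.
Acta2, chr19:34255324-34255623, minus strand: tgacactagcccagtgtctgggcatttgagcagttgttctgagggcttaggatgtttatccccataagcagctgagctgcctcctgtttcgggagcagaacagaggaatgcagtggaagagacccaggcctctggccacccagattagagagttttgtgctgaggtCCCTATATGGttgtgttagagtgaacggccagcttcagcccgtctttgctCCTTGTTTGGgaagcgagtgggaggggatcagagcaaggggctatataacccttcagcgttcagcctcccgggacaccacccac
Myl9, chr2:156775214-156775513, plus strand: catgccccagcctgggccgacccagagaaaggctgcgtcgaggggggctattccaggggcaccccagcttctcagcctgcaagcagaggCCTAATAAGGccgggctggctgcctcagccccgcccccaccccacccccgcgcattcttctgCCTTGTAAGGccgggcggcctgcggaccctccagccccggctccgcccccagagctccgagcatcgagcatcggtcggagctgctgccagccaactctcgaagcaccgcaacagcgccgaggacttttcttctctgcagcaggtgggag

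The boxes of *Acta2* began 84 and 34 bases before the start, and those of *Myl9* 161 and 99 bases before it. The box was searched on the strand of the gene only. Its pattern reads the same way on the other strand, so boxes there are counted too. An exact box was present in 2 of 14 contractile genes with a window (*Myl9* and *Myl6*) and in 488 of 27025 genes (1.81%). With 1 G or C allowed in the middle, the numbers were 3 of 14 contractile genes, *Acta2* being added, and 3050 of 27025 genes (11.3%). *Tagln*, *Actg2* and *Myh11* had no entry in the table used. No box of either kind lay in the windows of 2 basal keratins or of 7 basal transcription factors with an entry.

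Basal transcription factors were divided between those apart from both luminal clusters and those shared with C6. Of 12 listed, 6 reached the level for counting, and *Trp63*, *Snai2*, *Id4* and *Irx4* were higher than in both C4 and C6. *Trp63*, which maintains basal epithelial identity, stood at 190 and 213 CPM, against at most 4.98 CPM. *Id4*, an inhibitor of helix-loop-helix factors, stood at 443 and 450 CPM, against at most 4.83 CPM. *Snai2* (Slug) stood at 94.7 and 118 CPM, and *Irx4*, a homeobox gene, at 42.8 and 44.8 CPM. *Sox10* separated C12 from C4 only. It stood at 73.6 and 87.4 CPM in C12 and at 58.2 and 73.8 CPM in C6, but at 1.74 and 1.31 CPM in C4. *Zeb1*, a factor of mesenchymal cells, stood at 0.940 and 0.457 CPM in C12, and at 43.3 and 112 CPM in C18.

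Genes of the basement membrane were the next group. Of 15 genes, 11 reached the level for counting, 9 were higher in C12 than in both luminal clusters and none was lower. The collagen IV chains *Col4a1* and *Col4a2* stood at 216 and 311 CPM and at 173 and 230 CPM, against at most 17.8 and 6.64 CPM. *Sparc*, a collagen-binding matrix protein, stood at 1314 and 1157 CPM. The laminin chains *Lama3* and *Lamb3*, which form the laminin that anchors epithelia, stood at 65.1 and 64.0 CPM and at 102 and 111 CPM. *Lama5* was not apart from either cluster (42.8 and 36.6 CPM in C12 and 76.2 and 67.6 CPM in C4). C18 also had *Sparc* at 4657 and 4188 CPM and *Col4a1* at 657 and 612 CPM, so these genes were not particular to basal cells among the cells of the gland.

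Receptors for the membrane were shared more widely. Of 10 integrin and hemidesmosome genes, 8 reached the level for counting, and *Itga3*, *Itgb1* and *Col17a1* were higher than in both clusters. *Col17a1*, a hemidesmosome collagen, stood at 114 and 112 CPM against at most 1.66 CPM. *Itga6*, used as the surface marker CD49f of basal cells, stood at 387 and 397 CPM in C12 and at 217 and 215 CPM in C4, a ratio under 2. Of 9 cadherin and desmosome genes only *Cdh3* (P-cadherin) was higher than in both, at 89.8 and 70.5 CPM against at most 1.58 CPM. *Cdh1* (E-cadherin) stood at 193 and 179 CPM in C12 and was lower than in C6, where it stood at 479 and 452 CPM.

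Secreted factors and ligands set C12 apart in larger number. Of 22 growth factor genes, 18 reached the level for counting, 9 were higher than in both luminal clusters and *Erbb3* was lower. *Cxcl14*, a chemokine, stood at 3604 and 3874 CPM, against at most 40.4 CPM in C4 and C6. *Fst*, a secreted inhibitor of activin, stood at 1658 and 1768 CPM, against at most 23.2 CPM. *Igfbp3*, which binds insulin-like growth factors, stood at 1101 and 1070 CPM, against at most 9.79 CPM. All 3 were far above both luminal clusters in each mouse. *Nrg1* (neuregulin 1), a ligand of the receptor that *Erbb3* encodes, stood at 147 and 167 CPM in C12, while *Erbb3* stood at 11.5 and 9.61 CPM in C12, 68.4 and 72.1 CPM in C4 and 45.3 and 47.3 CPM in C6. *Kitl*, the ligand of *Kit*, stood at 250 and 206 CPM in C12, while *Kit* stood at 63.7 and 78.8 CPM in C6 and 6.82 and 0.915 CPM in C12.

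Notch and Wnt genes moved in both directions. The Notch ligands *Jag1* and *Dll1* were higher in C12 than in both clusters, at 301 and 295 CPM and at 107 and 96.1 CPM. The Notch target *Hes1* was lower than in both, at 58.1 and 61.3 CPM against 223 and 256 CPM in C4 and 196 and 137 CPM in C6. The remaining Notch genes were not apart from both clusters. *Wnt10a*, a Wnt ligand, stood at 115 and 123 CPM against at most 0.789 CPM. *Wnt11*, *Lgr5*, *Sfrp1* and *Dkk3* were also higher than in both, and *Wnt7b* was lower. *Lgr5*, a receptor that marks stem cells of several epithelia, had a UMI in 15.3% and 13.5% of C12 cells and in none of the 24 and 56 C18 cells, with the same limits as for *Oxtr*.

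Of 8 surface and stem cell markers, 5 reached the level for counting, and *Pdpn* (podoplanin) and *Cav1* (caveolin 1) were higher than in both luminal clusters. *Pdpn* stood at 186 and 181 CPM against at most 8.29 CPM, and at 607 and 443 CPM in C18. *Procr*, the protein C receptor, stood at 18.1 and 13.3 CPM in C12 and had a UMI in 6.55% and 6.03% of its cells. In C18 it stood at 217 and 178 CPM, with a UMI in 54.2% and 51.8% of cells.

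Fewer genes were lower in C12 than in both clusters. The tight junction claudins *Cldn3*, *Cldn4* and *Cldn7* were the members of the pan-luminal list that were. *Cldn4* stood at 396 and 247 CPM against 2278 and 1931 CPM in C4 and 2187 and 1904 CPM in C6. Of 15 genes that respond to tissue dissociation, 14 reached the level for counting, and *Fos*, *Fosb*, *Jun*, *Jund* and *Btg2* were lower than in both. *Fos* stood at 560 and 449 CPM, against 1982 and 2076 CPM in C4 and 2442 and 1841 CPM in C6. Other genes lower than in both, chosen after their values were seen, were *Spint1* (an epithelial protease inhibitor, 33.6 and 27.9 CPM), *Crb3* (an apical polarity gene, 34.6 and 29.7 CPM) and *Clu* (clusterin, 152 and 94.7 CPM). The genes furthest below 1 of the clusters were luminal lineage genes, with *Aldh1a3* at 157 and 57.2 CPM against 2035 and 1759 CPM in C6, and *Sbp* at 5.17 and 18.8 CPM against 162 and 168 CPM in C4.

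Luminal keratins were low in C12 but not absent. All 4 on the list were lower than in both C4 and C6. *Krt8* stood at 1801 and 1182 CPM in C12, against 5390 and 3901 CPM in C4 and 6329 and 5131 CPM in C6. *Krt18* stood at 1864 and 1160 CPM, against 8090 and 6696 CPM in C4 and 9819 and 7699 CPM in C6. The values of C12 did not overlap with those of either luminal cluster. A *Krt8* UMI was found in 98.0% and 94.3% of C12 cells, and a *Krt18* UMI in 98.4% and 94.7%. In C18, *Krt8* was found in 75% and 64.3% of cells and *Krt18* in 95.8% and 82.1%. A *Krt18* UMI was thus common in a cell type that should lack it, with a smaller gap to C12 in NP 1 than in NP 2.

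The luminal keratin share of a cell was taken as the UMIs of *Krt8* and *Krt18* over those of *Krt8*, *Krt18*, *Krt5* and *Krt14*. The median C12 cell had a share of 0.342 in NP 1 and 0.312 in NP 2, from a median of 12 and 9.5 luminal and 27 and 21 basal keratin UMIs. The quartiles were 0.250 and 0.479 in NP 1 and 0.209 and 0.444 in NP 2. In C4 and C6 the median was 1.00 in both mice, and the lowest cell of either cluster was at 0.854. Shares in C12 ran from 0 to 0.964 in NP 1 and from 0 to 0.974 in NP 2, so that some C12 cells lay within the luminal range. A share above 0.5 was found in 111 cells of NP 1 (22.0%) and 56 cells of NP 2 (19.9%). A share under 0.1 was found in 7 and 15 cells, and 1 and 4 cells had no *Krt8* or *Krt18* UMI.

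**Figure D2:**
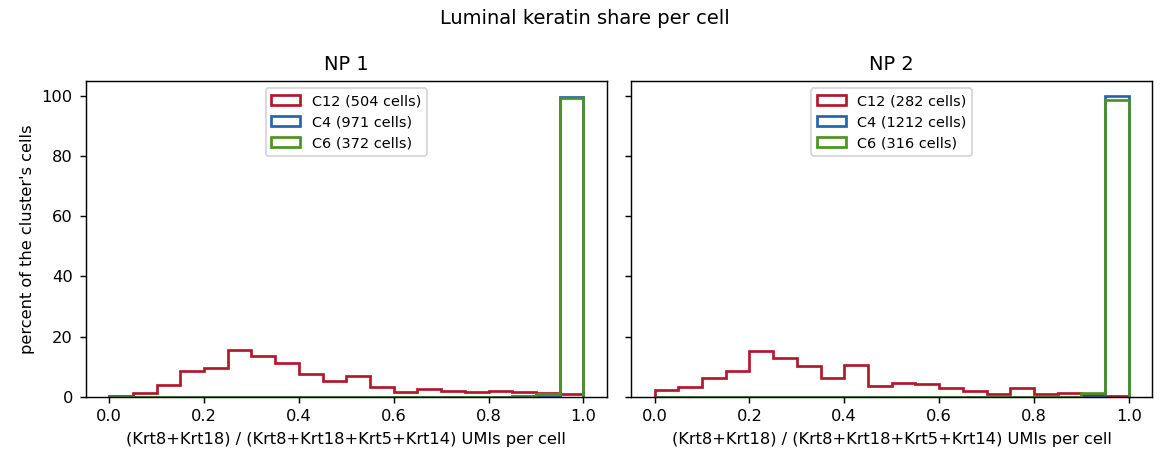
Luminal keratin share per cell in C12, C4 and C6 of NP 1 (left) and NP 2 (right), as the percent of the cells of each cluster in bins of the share. C12 cells spread around medians of 0.342 and 0.312 with a tail towards 1, while C4 and C6 cells stand at 1 or just under it.

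The share rested in part on deep cells with luminal lineage transcripts. A set of 9 genes was used to mark the luminal lineages, *Prlr*, *Pgr*, *Esr1*, *Cited1* and *Foxa1* for hormone-sensing cells and *Aldh1a3*, *Kit*, *Elf5* and *Csn3* for luminal progenitors. At least 3 of them were detected in 68 C12 cells of NP 1 (13.5%) and 24 of NP 2 (8.51%). These cells had median depths of 18259 and 14160.5 UMIs, against 5726.5 and 6083.5 UMIs in the other C12 cells. They held 30.4% and 16.1% of all C12 UMIs but 55.5% and 38.0% of the *Krt8* and *Krt18* UMIs. Their median luminal keratin share was 0.691 and 0.694, against 0.320 and 0.288 in the other cells. Since detection grows with depth, part of this split is set by depth. After each cell was thinned to 2000 UMIs, 12 and 3 C12 cells (2.38% and 1.06%) had at least 3 of the genes. The numbers were 346 and 354 in C4 (35.6% and 29.2%) and 83 and 72 in C6 (22.3% and 22.8%). In C18 they were 0 and 1 (0% and 1.79%).

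These cells carried transcripts of both layers. *Acta2* stood at 3890 and 2480 CPM in them and at 6302 and 5908 CPM in the other C12 cells. *Trp63* stood at 129 and 117 CPM, against 216 and 231 CPM. The 3 claudins together stood at 1530 and 1253 CPM, against 298 and 217 CPM. Basal transcripts were thus lower and luminal ones higher in both mice, with neither at the level of the pure clusters, and the luminal direction follows from how the cells were chosen. Chosen luminal genes outside the 9 gave the same order in sum. *Areg*, *Ly6d*, *Wfdc2* and *Prom1* together stood at 1431 and 3130 CPM in these cells and 311 and 306 CPM in the other C12 cells. Their sum was 303 and 203 CPM in C18 and 7806 and 7511 CPM in C4. *Wfdc18*, *Plet1*, *Cd14* and *Ltf* together stood at 2977 and 1341 CPM in these cells and 819 and 633 CPM in the other C12 cells. The progenitor gene *Lcn2* did not follow, at 2043 and 1810 CPM in all C12 cells and 2107 and 1949 CPM without these cells. Of the C12 cells with over 2 times the median depth, 53 of 83 in NP 1 and 14 of 31 in NP 2 had at least 3 of the genes. Whether these are droplets that held several cells was not tested here. No nulliparous cell fell in C20, the cluster that was set aside as doublet-like. The paper describes C20 as a mixture of C13 and C8, and C8 held no nulliparous cell. The absence of nulliparous cells from C20 therefore cannot decide this question.

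**Figure D3:**
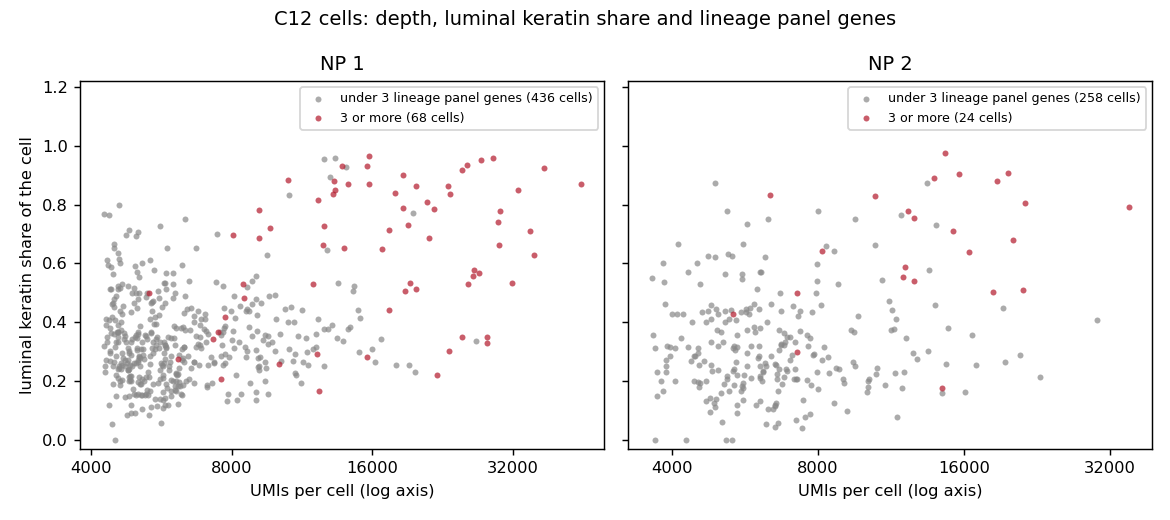
Luminal keratin share of each C12 cell against its UMI count (log axis) in NP 1 (left) and NP 2 (right), with cells that had 3 or more of the 9 lineage genes in red (68 and 24 cells) and the others in grey (436 and 258 cells). Red cells lie to the right, at median depths of 18259 and 14160.5 UMIs, and mostly above a share of 0.5.

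Without these cells, luminal transcripts of C12 were lower but unequal. *Krt18* stood at 997 and 741 CPM, or 12.3% and 11.1% of its level in C4. *Krt8* stood at 1346 and 989 CPM, or 25% and 25.4% of its level in C4. *Prlr*, the prolactin receptor, was at 2.11% and 3.09% of C4, *Cldn4* at 8.44% and 7.25%, and *Krt19* at 6.61% and 7.78%. *Krt8* therefore stood at a higher percent of its C4 level than the other luminal keratins and claudins in both mice. *Epcam*, the gene of the sorting marker, stood at 45.3% and 48.9% of C4. This order was taken against C4 and does not cover C6.

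The same cells were set beside C18. *Prlr* is one of the 9 genes by which cells were left out, so its fall follows in part from that choice. *Prlr* stood at 48.0 and 68.7 CPM in them and at 57.8 and 65.6 CPM in C18, ratios of 0.830 and 1.05. *Wfdc2*, *Areg* and *Ly6d*, other genes of C4, had ratios between 0.964 and 1.85. *Krt18* had ratios of 2.38 and 1.55, and *Krt8* had ratios of 5.65 and 4.11. Among these named genes outside the set of 9, ratios thus ran from about the level in C18 to several times it, with *Krt8* highest. Other genes outside the set lay further out. *Epcam* had ratios of 8.16 and 7.06, *Lcn2* of 58.4 and 14.9, and *Wfdc18* of 2.44 and 0.346. After thinning to 2000 UMIs, a *Krt8* UMI was found in 87.1% and 80.5% of all C12 cells against 45.8% and 35.7% of C18 cells. The corresponding shares for *Krt18* were 80.6% and 69.1% against 79.2% and 51.8%, and those for *Prlr* 13.3% and 13.1% against 25% and 14.3%. C18 held few luminal UMIs (33 and 77 for *Krt8*), which limits these ratios.

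The ratio of *Krt8* to *Krt18* does not depend on the total of either cluster. It was 0.666 and 0.583 in C4, 0.645 and 0.666 in C6 and 0.569 and 0.503 in C18. In C12 cells with at least 3 of the lineage genes it was 0.739 and 0.653. In the remaining C12 cells it was 1.35 and 1.34, higher than in any of the other groups of the same mouse. In basal cells of gestation it was 3.45 and 3.25, in those of lactation 6.30 and 4.64, and in those of PI 0.845 and 0.646.

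**Figure D4:**
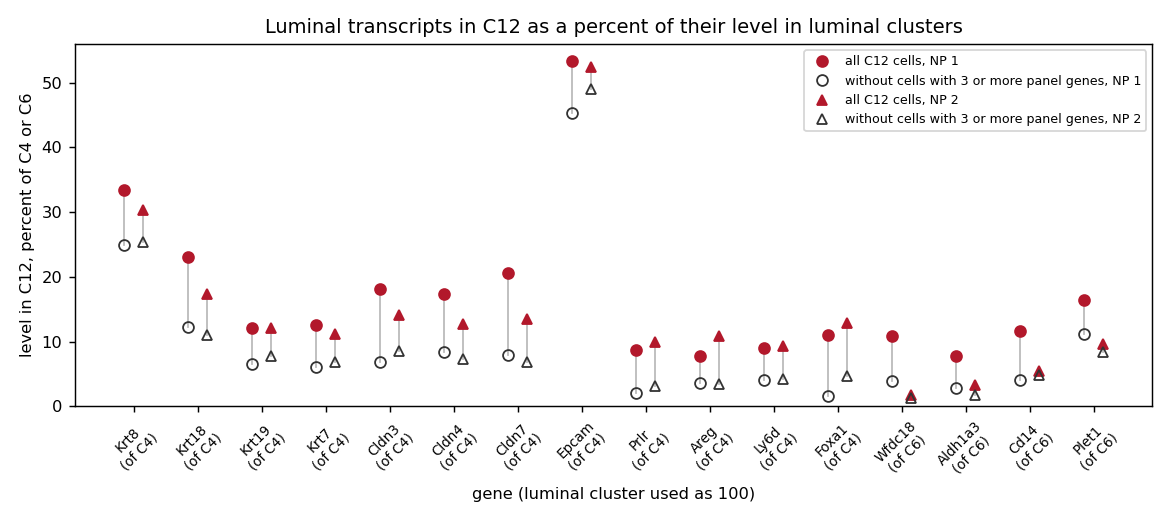
Level of 16 luminal genes in C12 as a percent of their level in C4 or C6 of the same mouse, for all C12 cells (red) and without cells with 3 or more lineage genes (open), circles NP 1 and triangles NP 2. *Epcam* (45.3% and 48.9% without those cells) and *Krt8* (25% and 25.4%) stand above *Krt18* (12.3% and 11.1%) and most other genes.

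Of the 12 luminal progenitor genes, 11 reached the level for counting against C6, of which 10 were lower in C12 and none was higher. Against C4, 6 of 8 were higher and none was lower. The gene not apart from C6 was *Lcn2*. *Lcn2* (lipocalin 2) stood at 2043 and 1810 CPM in C12, 84.3 and 42.4 CPM in C4 and 3252 and 3485 CPM in C6. It was at 2107 and 1949 CPM without the deep lineage cells, so its level in C12 did not rest on them. *Plet1*, a surface protein of progenitors, stood at 921 and 620 CPM with these cells and at 624 and 540 CPM without them. In C18, *Lcn2* stood at 36.1 and 131 CPM. *Aldh1a3*, in contrast, stood at 157 and 57.2 CPM with these cells and at 56.4 and 29.4 CPM without them and at 21.7 and 40.6 CPM in C18. *Aldh1a3* is one of the 9 genes used to leave cells out, and its value in C18 rests on 3 and 13 UMIs.

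C12 cells also varied among themselves. Variation was measured in cells with under 3 lineage genes, thinned to 2000 UMIs, as the variance over the mean of the UMI count of a gene, which is 1 for counting noise alone. Over 1470 genes the median was 1.06 in NP 1 and 1.07 in NP 2. *Slpi*, a secreted protease inhibitor, had 8.44 and 14.1, and *Mt1*, a metallothionein, had 6.46 and 12.7. *Acta2* had 5.61 and 6.12, *Fst* 4.21 and 7.99, and *Krt15* 4.24 and 4.53. A thinned *Krt15* UMI was found in 45% and 34.1% of cells, with up to 18 and 16 UMIs in 1 cell, so that the gene was high in some C12 cells and unseen in others. The chemokines *Cxcl1* and *Cxcl2* were also uneven, with *Cxcl2* UMIs in 7.11% and 6.98% of cells.

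Spearman correlations over these 436 and 258 cells are given as a description, since cells of a mouse share a library. *Krt5* and *Krt14* together varied with *Krt17* (0.38 and 0.44), and contractile genes varied with *Krt17* (0.25 and 0.48) and with basement membrane genes (0.26 and 0.33). *Krt8* and *Krt18* together varied little with contractile genes (0.06 and 0.03) or with the claudins (-0.00 and 0.15).

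The nulliparous mice differed from each other in some transcripts. *Wfdc18* in C12 stood at 482 CPM in NP 1 and 102 CPM in NP 2, and the difference remained without the deep lineage cells (176 and 72.5 CPM). *Igfbp2* stood at 137 and 297 CPM. *Lyz2*, a myeloid gene, stood at 2.35 and 46.7 CPM, and the T cell gene *Cd3e* was at 0 in both. The fibroblast list summed to 187 and 270 CPM in C12, with all 7 genes detected and *Dcn* (decorin) at 138 and 179 CPM. Pericyte genes summed to 65.8 and 58.1 CPM with 8 and 6 of 8 genes detected, endothelial genes to 18.6 and 13.3 CPM with 6 and 5 of 6 detected, immune genes to 91.7 and 118 CPM with 4 of 6 detected in each mouse, and milk protein genes to 16.5 and 5.03 CPM with 5 and 3 of 7 detected. Of 12 cell division genes, 11 were below 20 CPM.

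The stage comparisons ask how nulliparous basal cells differ from those of later stages. Here counts of all basal cells (C12 to C14) were summed per mouse. In NP these were the C12 cells plus 1 C13 cell. The other sums held 528 and 604 cells for G, 4639 and 3105 for the L mice, and 28 and 59 for PI. Sums were compared by the quasi-likelihood test of edgeR, with the Benjamini-Hochberg correction taken across every gene in the fit, and levels in these comparisons are TMM-normalised CPM. With 2 mice per stage the spread rests on information shared between genes. The comparisons share the NP mice and are not independent of each other. Each mouse is its own library, so stage and differences between individual mice or libraries cannot be told apart beyond the spread within a stage. The ages of the G, L and PI mice are not given, so stage cannot be told apart from age either.

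Against gestation, 2424 of 11086 genes (21.9%) were higher in NP and 2690 (24.3%) were lower. Of 17 contractile genes tested, none was higher in NP and 11 were lower. *Acta2* stood at 5309 and 5343 CPM in NP and at 14748 and 10762 CPM in G, a log2 difference of -1.26 ± 0.15 (SE, adjusted p = 5.62e-06). *Mylk* differed by -2.40 ± 0.17 and *Myl9* by -1.87 ± 0.16. *Oxtr* (49.8 and 72.0 against 77.6 and 63.5 CPM) and *Tpm2* did not pass the test. Without cells with at least 3 lineage genes, *Lmod1*, *Tagln* and *Tpm1* did not pass either (adjusted p = 0.189, 0.104 and 0.171).

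Of 14 basement membrane genes tested, 13 were lower in NP than in G and *Lama5* was higher (0.51 ± 0.20), the latter not past the test without cells with at least 3 lineage genes (adjusted p = 0.128). *Col4a1* stood at 206 and 317 CPM in NP and at 1193 and 1153 CPM in G (log2 difference -2.18 ± 0.17, adjusted p = 6.27e-08). Fibroblast genes moved the same way, with 5 of 7 lower in NP and none higher, and summed to 187 and 270 CPM in C12 against 912 and 689 CPM in G with all 7 detected. Their part in the basement membrane differences was not tested. *Lama1*, an early laminin chain, differed by -3.28 ± 0.27. Growth factor genes were divided, with 4 of 22 higher and 11 lower in NP. *Igfbp4* (-2.73 ± 0.14), *Igfbp5* (-1.99 ± 0.12) and *Nrg1* (-1.83 ± 0.14) were lower, while *Igfbp7* (1.12 ± 0.13) and *Cxcl14* (0.98 ± 0.14) were higher. *Fst* and *Igfbp3* (0.28 ± 0.15) did not pass the test. *Igfbp3* was higher in NP and past the test without cells with at least 3 lineage genes (0.46, adjusted p = 0.0146), without cells above 2 times the median depth (0.62, adjusted p = 9.56e-04) and without mouse G 2 (0.55, adjusted p = 0.00591).

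Of 11 transcription factors tested against gestation, 3 were higher in NP and 5 lower. *Mef2c*, a muscle and neural factor, stood at 6.50 and 14 CPM in NP and at 101 and 65.4 CPM in G (-3.15 ± 0.28). *Bcl11b* (1.45 ± 0.28) and *Id4* (0.68 ± 0.12) were higher in NP. *Dll1* (0.94 ± 0.16), *Hes1* (1.65 ± 0.19) and *Jag1* (0.43 ± 0.13) were higher, the last not past the test without mouse G 1 (0.31, adjusted p = 0.0924), and *Wnt6* (-2.86 ± 0.22) was lower. Of 12 cell division genes, 9 were lower in NP, with *Mki67*, the antigen Ki-67, at 0.672 and 5.89 CPM against 54.1 and 37.6 CPM.

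Several luminal lists were mostly higher in NP than in gestational basal cells. All 4 luminal keratins, 9 of 10 hormone-sensing genes and 7 of 10 pan-luminal genes passed the test as higher in NP, while the pan-luminal genes *Gata3* and *Cd24a* were lower. Of 11 luminal progenitor genes, 4 were higher and *Csn3* and *Elf5* were lower. Without mouse NP 1, *Gata3*, *Cd24a* and *Elf5* did not pass (adjusted p = 0.370, 0.266 and 0.0863), and *Elf5* did not pass with any other mouse left out either (adjusted p = 0.0854 to 0.163). *Krt18* stood at 1777 and 1149 CPM in NP and at 190 and 203 CPM in G (2.90 ± 0.18, adjusted p = 4.58e-09). *Krt8* stood at 1717 and 1175 CPM in NP and at 656 and 659 CPM in G (1.14 ± 0.15, adjusted p = 2.21e-05). Without cells with at least 3 lineage genes, *Krt18* differed by 2.19 and *Krt8* by 0.82, both past the test. *Prlr* differed by 5.78 ± 0.24, and by 4.28 without those cells. The kind of luminal cell in the libraries changed with stage too. C4 held 44.8% and 58.9% of the cells of the NP libraries and no passing cell of the G libraries. C8, a cluster of luminal cells with milk protein transcripts, held 68.3% and 60.5% of the cells of the G libraries. The G sums also left out the doublet-like cluster C20, with 103 and 205 cells, while cells with at least 3 lineage genes stayed in the main NP sums. The parts of free RNA and of this choice of cells in these differences were not tested. The nulliparous genes that differed most by the naming rule included *Nupr1*, a stress-responsive chromatin protein (634 and 625 against 12 and 9.93 CPM), and *AW112010* (214 and 161 against 6.79 and 4.85 CPM). In C4 they stood at 5934 and 4899 CPM and at 2697 and 2059 CPM, and in C18 at 1235 and 1358 CPM and at 202 and 147 CPM, so neither was particular to basal cells.

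**Figure D5:**
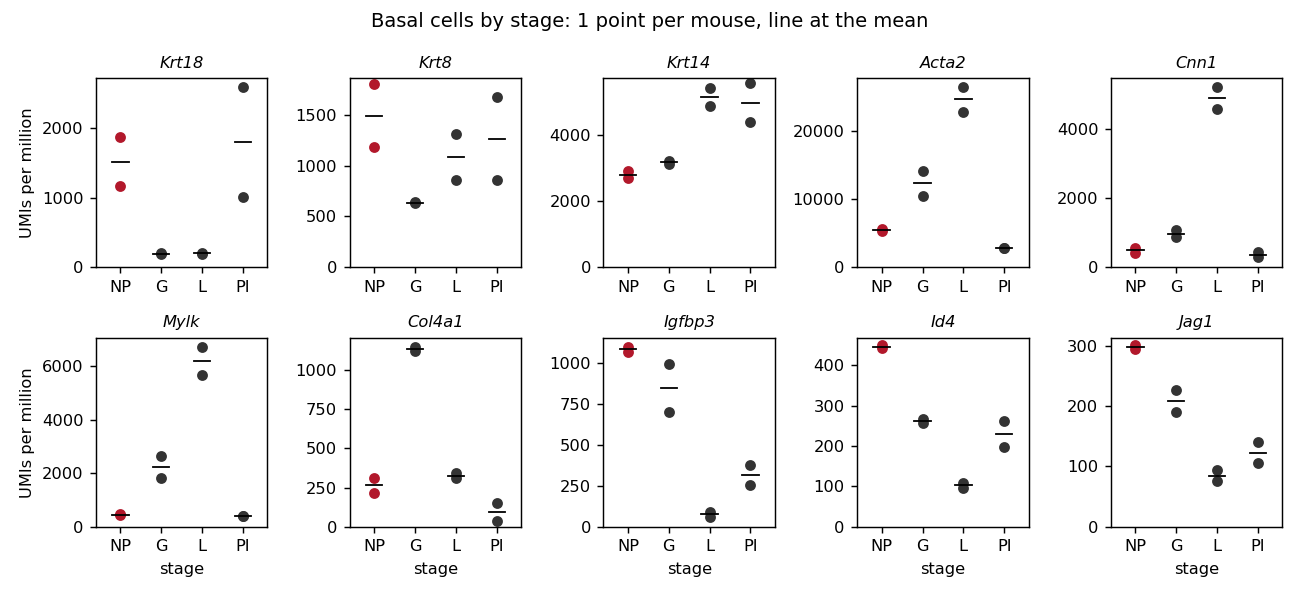
Levels of 10 genes (CPM without TMM scaling) in C12 cells of NP and in basal cells (C12 to C14) of G, L and PI, with 1 point per mouse and a line at the mean. Points of *Acta2*, *Cnn1* and *Mylk* in NP lie below those of G and L, points of *Krt18* lie above them, and *Igfbp3*, *Id4* and *Jag1* in NP lie above L.

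Against lactation, 3723 of 12653 genes (29.4%) were higher in NP and 4201 (33.2%) were lower. Of 17 contractile genes, 16 were lower in NP and *Actn1* did not pass the test. *Acta2* stood at 5068 and 5092 CPM in NP and at 28527 and 24724 CPM in L (-2.39 ± 0.13, adjusted p = 1.79e-06). *Oxtr* stood at 47.5 and 68.6 CPM in NP and at 798 and 729 CPM in L (-3.75 ± 0.18, adjusted p = 1.09e-06). *Mylk* differed by -4.00 ± 0.15 and *Cnn1* by -3.55 ± 0.19. *Cav1*, the coat protein of caveolae, was also lower in NP (-2.50 ± 0.13).

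Other groups were divided between NP and lactation. *Krt14* (-1.10 ± 0.12), *Krt15* (-1.75 ± 0.12) and *Krt5* (-0.60 ± 0.11) were lower in NP, whereas *Krt5* (0.62 ± 0.13) and *Krt15* (0.98 ± 0.14) were higher in NP than in gestation. *Igfbp3* stood at 1002 and 1029 CPM in NP and at 96.8 and 67.5 CPM in L (3.63 ± 0.18, adjusted p = 1.22e-06). *Fst* (2.59 ± 0.12), *Id4* (1.90 ± 0.12), *Bcl11b* (3.21 ± 0.28) and *Jag1* (1.60 ± 0.13) were higher in NP. *Cxcl14* (-1.49 ± 0.12), *Dll1* (-0.79 ± 0.11), *Hes1* (-1.49 ± 0.12) and *Wnt6* (-4.47 ± 0.16) were lower. *Trp63* and *Wnt10a* did not pass the test, with *Trp63* at 173 and 202 CPM in NP and at 157 and 167 CPM in L. Without cells with at least 3 lineage genes both were higher in NP and past the test (0.39, adjusted p = 0.0117 for *Trp63* and 0.43, adjusted p = 0.0480 for *Wnt10a*), as was *Wnt10a* without mouse L 2 (0.54, adjusted p = 5.67e-04).

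Among luminal keratins, *Krt18* passed the test against lactation and the others did not. *Krt18* stood at 1697 and 1095 CPM in NP and at 224 and 200 CPM in L (2.72 ± 0.20, adjusted p = 8.71e-06), and differed by 1.99 without the cells with at least 3 lineage genes. *Krt8* stood at 1639 and 1120 CPM in NP and at 1409 and 928 CPM in L (0.24 ± 0.22, adjusted p = 0.367). *Krt8* was past the test as higher in NP without mouse L 1 (0.55, adjusted p = 0.00424) or without mouse NP 2 (0.53, adjusted p = 0.0391). *Krt19* (-0.01 ± 0.22) and *Krt7* (-0.07 ± 0.14) did not pass with all cells, and were lower in NP and past the test without those cells, at -0.75 and -0.95. Without mouse L 1, *Krt19* differed by 0.37 (adjusted p = 0.0368), and without mouse L 2 by -0.34 (adjusted p = 0.0486). *Prlr* (7.40 ± 0.19), *Areg* (8.58 ± 0.31) and *Cldn4* (6.19 ± 0.37) were higher in NP. Milk protein genes in the basal sums stood at 1696 and 2000 CPM in L and at 1666 and 868 CPM in G, against 16.5 and 5.03 CPM in C12. All 15 dissociation genes were lower in NP than in L and 12 of 15 were lower than in G, and the part of either list in the other differences was not tested.

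Against post-involution, 229 of 8511 genes (2.69%) were higher in NP and 403 (4.74%) were lower. The PI sums held 114382 and 312628 UMIs, against 4254570 and 2196765 in NP, which limits what was detectable. Without the filter on low counts, 4 genes were higher and 14 lower, and without mouse NP 2 the counts were 64 and 130. The NP mice and PI 2 were in oestrus and PI 1 was in dioestrus. Of 16 contractile genes tested, 7 were higher in NP and none was lower. *Acta2* stood at 5544 and 5611 CPM in NP and at 2791 and 2918 CPM in PI (0.96 ± 0.17, adjusted p = 6.34e-04). *Actg2* stood at 359 and 391 CPM against 86.4 and 85.2 CPM (2.13 ± 0.24, adjusted p = 1.84e-06). *Mylk* did not pass the test, at 424 and 494 CPM in NP and 398 and 407 CPM in PI.

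Of 15 dissociation genes, 9 were lower in NP than in PI and none was higher, and their part in the other differences was not tested. *Procr* was lower in NP than in PI, at 18 and 13.8 CPM against 320 and 161 CPM (-3.68 ± 0.30, adjusted p = 1.38e-08). *Pdpn* (-1.50 ± 0.18), *Krt14* (-0.81 ± 0.17), *Cxcl14* (-0.88 ± 0.17), *Sfrp1* (-2.41 ± 0.33) and *Il6*, a cytokine (-4.24 ± 0.40), were also lower in NP. *Gm13889* (7.26 and 3.33 against 519 and 266 CPM) and *Sparcl1*, a matrix protein (4.21 and 3.80 against 173 and 111 CPM), showed the same direction. Higher in NP were *Igfbp3* (1.73 ± 0.20), *Igfbp7* (1.46 ± 0.19), *Jag1* (1.21 ± 0.22), *Id4* (1.03 ± 0.20), *Krt15* (1.61 ± 0.36) and *Cav1* (1.29 ± 0.24). Without the filter on low counts, neither *Acta2* nor *Procr* passed the edgeR test (adjusted p = 0.0668 and 0.0736). The same held for *Pdpn*, *Krt14*, *Cxcl14*, *Sfrp1*, *Igfbp3*, *Igfbp7*, *Jag1*, *Id4*, *Krt15* and *Cav1* (adjusted p = 0.0517 to 0.391). Of 137 stage results of named genes over all comparisons, 23 lost the call without the filter, 2 gained it and 112 did not change. *Krt15* in PI stood at 398 and 68.8 CPM, and without PI 2 the difference was 0.55 (adjusted p = 0.263). *Id4* did not pass without either NP mouse (adjusted p = 0.0719 without NP 1 and 0.124 without NP 2). No luminal keratin passed the test with all cells, *Krt18* was lower in NP without cells with at least 3 lineage genes (-0.85, adjusted p = 0.0364), and the PI mice differed widely from each other, with *Krt18* at 1002 and 2656 CPM and *Prlr* at 0 and 636 CPM.

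The median luminal keratin share of basal cells was 0.167 in both G mice, 0.192 and 0.125 in the L mice and 0.202 and 0.219 in the PI mice, against 0.342 and 0.312 in NP. Both NP medians lay above both medians of every other stage, those of PI resting on 28 and 59 cells. Other measures did not keep this order for PI 2. A share above 0.5 was found in 10.7% and 27.1% of basal cells of the PI mice, against 22.0% and 19.9% in NP. *Krt8* and *Krt18* together stood at 1871 and 4264 CPM in the PI mice, against 3665 and 2341 CPM in NP. The exact two-sided permutation test over mice gave p = 0.333 for each comparison, which is the smallest p that 2 mice against 2 allow.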

How the data were processed

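Single-cell counts were analysed for 8 libraries, 1 mouse each, with 2 mice per stage. The authors deposited raw UMI counts per gene and cell for each library and a table that assigns cells to clusters. The submitters' processing notes name STAR and mm10, and the counts carry no normalisation. Cells that the deposited table flagged as passing were joined to the counts by library and barcode. The deposited table also gives the mitochondrial share of UMIs per cell as a fraction that the authors computed. The annotated totals differed from the summed counts in 1053 cells, by at most 5 UMIs. Symbols shared by several gene identifiers (56 symbols, 121 rows) were left as separate rows. Doublets were treated as the authors left them, who set a doublet-like cluster aside, and no caller was run here.

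The cells, gene lists and tests were chosen with earlier results of these data known. Cluster levels are CPM of summed counts, without a test. Genes could be named if they were on the lists, if the paper names them for basal clusters, if their smaller ratio over both luminal clusters and both mice was among the 12 largest or 12 smallest at 100 CPM or more, or if they were among the 8 largest called rises or falls of a stage comparison at 20 CPM or more with no overlap between mice. Genes with high variance over mean among C12 cells were named too, at a mean of at least 0.2 UMIs per 2000. *Spint1*, *Crb3* and *Clu* were named after their values were seen, as genes lower in C12 than in both luminal clusters. For comparisons of shares between depths, cells were thinned to 2000 UMIs. Stage sums were tested by edgeR 4.0.16 (limma 3.58.1, R 4.3.3) with filterByExpr, TMM normalisation, quasi-likelihood tests and Benjamini-Hochberg adjustment at 0.05, using only the 2 stages compared. The alternatives were DESeq2 1.42.0, its size factors, no filter, a replicate block, 1 fit of all 8 mice, thinned sums, the main basal cluster alone, and leaving out a mouse, deep cells or cells with lineage genes. On simulated counts, 60.0% of 2-fold changes were recovered in the NP against G design, 57.0% in NP against L and 20.0% in NP against PI. The simulation changed 100 genes by 2-fold and 100 by 4-fold, and gave every gene the same dispersion, which was not taken from these mice. Far more genes were called in the data against G and L, so the rates describe that setting and not the power of the real tests. The paper states that the experiment was set up so that all stages could be collected and processed together, and that libraries were pooled for sequencing. It does not say whether the 2 mice of a stage shared more than this. The p-values set stage differences against a variance that is estimated from 2 mice per stage with information shared between genes. Upper limits for shares of 0 are 3 counts of the cells and cover counting error only. Scripts used Python 3.11.15, numpy 2.4.6, scipy 1.17.1, pandas 2.3.3 and matplotlib 3.10.9.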

Additional observations from a re-analysis of the deposited data

How the results depend on the processing

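Between clusters, a 4-fold limit gave 475 genes higher and 254 lower in C12 than in C4, and 277 and 170 against C6, while a level of 50 CPM gave 754 and 445 against C4 and 379 and 315 against C6. The mean over mice of the median luminal keratin share was 0.327, and was 0.304 without cells with lineage genes and 0.169 with *Krt7*, *Krt19*, *Krt15* and *Krt17* added. The *Krt8* and *Krt18* level (mean 3003 CPM) was 1967 CPM without cells above 2 times the median depth and 2036 CPM without cells with lineage genes. *Krt18* as a percent of C4 (mean 20.2%) was 11.4%, 11.7% and, after thinning, 15.3%, and as a percent of C6 (17.0%) it was 9.39%, 9.89% and 12.5%.

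The DESeq2 Wald test called 1410 genes higher and 1688 lower in NP than in G, and 120 and 265 against PI. Against PI, no filter gave 4 and 14, thinned sums gave 65 and 98, and the fit of all 8 mice gave 302 higher and 228 lower, with more genes higher than lower, unlike the 229 and 403 reported. Leaving out a mouse gave 1544 to 2426 higher and 1879 to 2662 lower against G, with the lowest counts without NP 1. The ranges were 2915 to 3606 and 3332 to 4013 against L, and 64 to 371 and 130 to 520 against PI. The lone mouse left in a stage was then assumed to vary like the other stage.

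The replicate block gave 2514 and 2762 calls against G, 3824 and 4313 against L and 199 and 319 against PI, and among 137 stage results of named genes it changed 1 call, that of *Tpm1* against G (-0.32, adjusted p = 0.0672). The labels give same-numbered mice of different stages nothing in common but the number. The correlations of their deviations were -0.04, 0.02 and -0.01, which cannot decide whether such mice were handled together. Over the alternatives, single genes kept their side of the threshold in 1654 results, lost the call in 90, gained it in 29 and reversed in 2. A change of direction was counted as reversed only if the reported or the alternative result was past the test. The 1654 results can thus include changes of direction in genes past neither test. The reversed results were *Krt19* against L without L 1 and *Prlr* against PI without PI 2, *Prlr* being at 0 in PI 1. With 1 mouse of the other stage left out they ran from -0.34 to 0.37 and from -1.56 to 11.85. Without deep cells and without cells with lineage genes, *Krt19* was at -0.77 and -0.75 and *Prlr* at -1.81 and -1.77. The causes were not tested.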
